A study of Mus musculus with 12 samples.

Results

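GSK-LSD1 alone was set against its solvent DMSO in mouse leukaemia cells by RNA sequencing, with 3 libraries per treatment out of the 12 libraries and 4 treatments of the series. The cells were BALB/c bone marrow cells that carried mutant CSF3R, the receptor of granulocyte colony-stimulating factor, and mutant CEBPA, a transcription factor of granulocyte formation, both brought in by retrovirus. All groups carried both mutant genes and were kept for 24 h in IMDM with fetal bovine serum. The groups were DMSO, 2 nM GSK-LSD1, ruxolitinib at 50 nM (which blocks the kinases JAK1 and JAK2) and 2 nM GSK-LSD1 with 50 nM ruxolitinib, called the combination here. The retroviral promoter, the number of clones and whether the libraries of a group came from separate cultures are not given in the sources used here, so p-values measure only the spread between these libraries. Of 24411 genes in the deposited table, 11484 had a mean normalised read count of at least 10 over the 12 libraries and were tested. The other genes were described by their values, with most attention to those that were silent in DMSO. Next to this limit stood Il20ra, just inside with a mean of 10.04, and Atp5g1, just outside with 9.989.

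LSD1, encoded by Kdm1a, removes methyl groups from lysine 4 of histone H3 at promoters and enhancers, and works as part of the CoREST repressor complex with histone deacetylases. In blood cells the zinc finger repressors GFI1 and GFI1B recruit this complex to their target genes through a short N-terminal domain, and both are known to bind and repress their own genes and each other's. Neutrophils and monocytes arise from a common progenitor, and GFI1 holds back monocyte genes in cells that become neutrophils. GSK-LSD1 blocks the enzyme by a covalent bond with its cofactor, so that the level of the Kdm1a transcript is no measure of inhibition.

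Kdm1a itself gave 1336, 1302 and 1364 normalised read counts in the DMSO libraries and 1261, 1325 and 1278 with GSK-LSD1, and these ranges overlapped. Its log2 fold change was -0.05 ± 0.06 SE (limma adjusted p = 0.524), but it was called lower after a correction for transcript GC content (adjusted p = 0.0257). The granulocyte genes that define these cells were present in all 6 libraries: Mpo (myeloperoxidase) lay between 6385 and 7402, Prtn3 (proteinase 3) between 1198 and 2204, Cebpa between 8674 and 9713 and Csf3r between 1511 and 1697. The last 2 could include reads from the retroviral copies. Other markers chosen for these cells were Ptprc (1273 to 2008), Spi1 (1068 to 1408) and Ctsg (596.2 to 1028). Lower still were Elane, between 72.8 and 144, and Kit, between 15.84 and 53.95. In DMSO the primary granule genes summed to 13162 to 13841. Mast cell, basophil and eosinophil genes, a longer list, summed to 35806 to 40369. Haemoglobin genes Hba-a1 and Hbb-bs, the B cell factor Pax5, the T cell gene Cd3e and the endothelial gene Cdh5 were listed at 0 in all 6.

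Multiples of the smallest step of each library summed to between 8260995 and 8528400, so the libraries were of nearly equal depth if these are reads. Replicate pairs differed by 1.74 to 1.87 times the counting variance within DMSO and by 1.48 to 2.64 times within GSK-LSD1. Ruxolitinib replicate 2 and combination replicate 3 stood apart from their groups, with 5.72 to 7.13 times. Neither is part of the comparison with DMSO, but both enter the shared estimate of spread.

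After GSK-LSD1, 3728 of 11484 tested genes had an adjusted p under 0.05 (32.5%; limma on log2 of the value plus 1, Benjamini-Hochberg adjustment), against 4810 at an unadjusted p under 0.05. Of these, 1948 were higher (17%) and 1780 lower (15.5%). After the GC correction, chosen as an alternative, the split was 1701 higher and 3116 lower. Falls were also the larger count with only the 6 libraries (2413 higher and 2572 lower) and without both libraries that stood apart (2373 and 2505). The same held with a minimum mean of 50 (1625 and 1764) and under quantile normalisation (1670 and 1803). Rises were the larger count under every other setting. Rises reached much further than falls. At 1.5-fold or more, 802 genes were higher (6.98%) and 103 lower (0.897%). At 2-fold or more, 299 genes were higher (2.6%) and 27 lower (0.235%), and at 4-fold or more 47 were higher (0.409%) and none lower. The 2-fold counts moved with the level of expression required: they were 458 and 63 with no minimum and 136 and 7 with a minimum mean of 50. Quantile normalisation gave 183 and 59. The median rise among called genes was 0.50 on the log2 scale, the median fall -0.30, and the median over all tested genes was -0.00486. The 3 libraries of each group did not overlap for 5848 genes (50.9%), 2799 of them higher (24.4%) and 3049 lower (26.5%). In normalised read counts the called rises summed to 4.58% of a DMSO library and the called falls to 4.65%. The normalised totals were nearly equal, at 8369650 to 8445168 in DMSO and 8302908 to 8331737 with GSK-LSD1. Rises and falls over all genes were therefore bound to be close, and no conclusion is drawn from that.

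The difference in reach followed the level of the genes, as the plot of change against level shows. To sort genes by a level that does not enter the fold change, the means of the ruxolitinib libraries were taken. Among 1086 genes with a mean of 10 to 30 there, 21.1% were higher after GSK-LSD1 and 1.75% lower, and 10.5% were at least 2-fold higher. Among 1765 genes at 1000 to 3000, 12.5% were higher and 28.8% lower, and 0.340% were at least 2-fold higher. Tested genes with a ruxolitinib mean under 10 are in none of these levels. Of the 299 genes that rose at least 2-fold, 251 had a DMSO mean under 100 and 6 had a mean of 1000 or more. Among the 251, 78 had a DMSO mean under 10 and so passed the minimum mean only through other libraries. Of the 27 genes that fell at least 2-fold, 9 had a GSK-LSD1 mean under 10. The counts of 299 and 27 thus include genes that the higher group helped through the minimum.

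**Figure D1:**
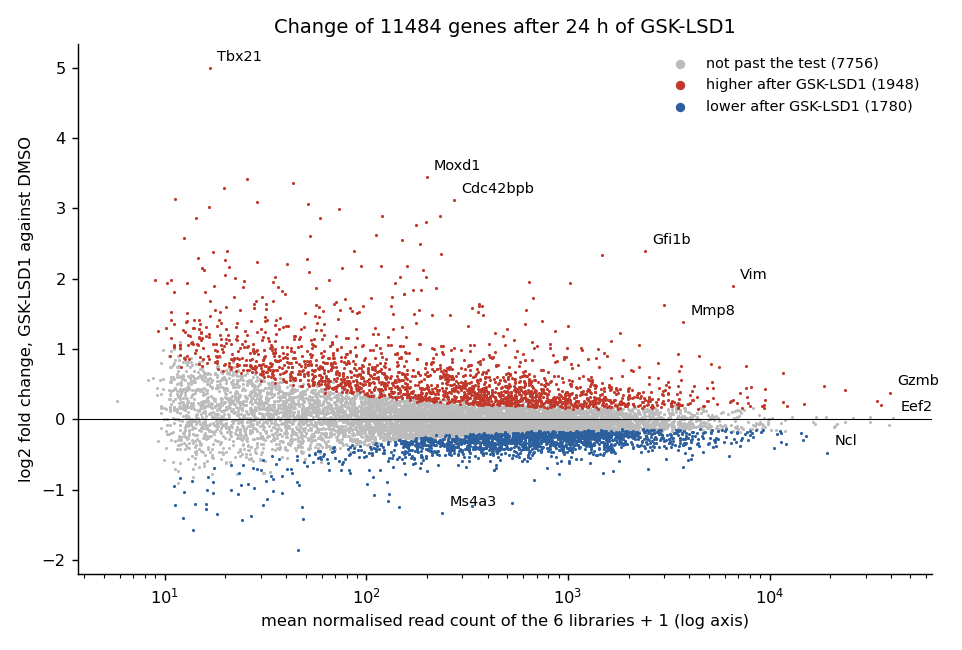
Log2 fold change after GSK-LSD1 (vertical axis) against the mean normalised read count of the 6 libraries (log axis) for 11484 tested genes, with genes past the test in colour. The 1948 rises spread up to the highest values at low and middle levels, whereas the 1780 falls lie mostly close to 0 and at higher levels.

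The LSD1 partners Gfi1b and Gfi1 both rose, and their promoters are shown because GFI1 and GFI1B are known to bind them. The sequences are from RefSeq (GRCm38.p6) and cover 250 bases before to 50 after the annotated start. Capitals mark each AATC, the core of the GFI1 and GFI1B recognition sequence, and its reverse complement GATT. The Gfi1b promoter is chr2:28621933-28622232 and the Gfi1 promoter chr5:107725756-107726055, both given 5′ to 3′ along the minus strand on which the genes lie.
Gfi1b: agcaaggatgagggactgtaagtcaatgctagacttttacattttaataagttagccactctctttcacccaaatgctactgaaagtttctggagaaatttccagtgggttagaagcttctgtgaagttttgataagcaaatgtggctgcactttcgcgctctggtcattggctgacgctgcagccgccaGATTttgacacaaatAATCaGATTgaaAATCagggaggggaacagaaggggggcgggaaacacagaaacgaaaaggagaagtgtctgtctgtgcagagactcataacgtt
Gfi1: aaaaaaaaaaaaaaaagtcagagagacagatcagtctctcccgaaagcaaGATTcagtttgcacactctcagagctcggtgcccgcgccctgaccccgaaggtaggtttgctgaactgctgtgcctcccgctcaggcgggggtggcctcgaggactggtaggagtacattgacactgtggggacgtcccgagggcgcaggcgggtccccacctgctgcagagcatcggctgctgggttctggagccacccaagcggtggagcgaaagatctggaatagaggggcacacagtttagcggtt
The Gfi1b promoter held 4 matches and the Gfi1 promoter 1. Over 8865 tested genes with a promoter sequence in the table, the median was 1 match and 5.92% had 4 or more. The 4 matches of Gfi1b stand within a short stretch close to the start of the gene, and a match is a description of the letters only.

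Gfi1b had 833.2, 743.2 and 733.8 normalised read counts in DMSO and 4194, 3912 and 4015 with GSK-LSD1. Every treated library was above every DMSO library, and the log2 fold change was 2.39 ± 0.08 SE (limma adjusted p = 7.82e-15). Gfi1, which shares bases with an annotated neighbour on the opposite strand, had 91.36, 99.03 and 93.08 in DMSO and 348.7, 309.5 and 384.9 with GSK-LSD1 (1.86 ± 0.12). The other members of the complex moved far less. Of 19 tested genes of the LSD1 corepressor complex, 9 rose and 1 fell, with a median of 0.18, or 7 and 5 with a median of 0.08 after the GC correction. The count of rises was 5 with no minimum level, and 5 again without DMSO replicate 2, GSK-LSD1 replicate 1 or GSK-LSD1 replicate 3. Zeb2, a zinc finger repressor, rose from 324 ± 34.5 to 551.1 ± 47.5 (SD, n = 3), a log2 fold change of 0.77, and the scaffold gene Gse1 rose by 0.23 from the highest level of the list, a call lost after the GC correction (adjusted p = 0.0519). The scaffold gene Rcor1, which encodes CoREST, was at 0.18 ± 0.10 (adjusted p = 0.163), and it was called higher with only the 6 libraries of the comparison (adjusted p = 0.0158) and without both libraries that stood apart (0.0398). Among other histone demethylases 5 of 19 rose and 1 fell (median 0.13; 4 and 4 after the GC correction): Kdm7a by 0.80 and Kdm4a by 0.31, whereas Jmjd6 fell by 0.35. That count of rises was 3 without any 1 of the DMSO replicates or without GSK-LSD1 replicate 2 or 3. In the main setting 26.3% of these demethylases rose and 5.26% fell, against 17% and 15.5% of all tested genes.

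The largest rises came in genes of many kinds. Moxd1, a monooxygenase-like gene at chr10:24223517-24302790, had 32.77, 25.01 and 41.59 normalised read counts in DMSO and 386.6, 346.4 and 357 with GSK-LSD1 (log2 fold change 3.44 ± 0.24 SE). Cdc42bpb, a kinase that acts below the GTPase CDC42, went from 60.58, 44.01 and 62.39 to 452.6, 503.6 and 496.6 (3.11 ± 0.12). Pigz, a mannosyltransferase of membrane anchors, went from 14.9, 15 and 15.84 to 132.9, 114.5 and 140.6 (2.999 ± 0.167). In each of these 3 genes the lowest treated library was several times the highest DMSO library. Maged1, an adaptor of the MAGE family, rose by 2.89 ± 0.13, and Scpep1, a lysosomal carboxypeptidase that overlaps Scpep1os, also by 2.89 ± 0.18. Id3, which blocks basic helix-loop-helix factors, rose by 2.87 from 7.945, 12 and 22.78. Dkk1, a secreted Wnt inhibitor, rose by 2.76, and Tubb3, the neuronal beta-tubulin, by 2.35. Kctd14 (2.80), Fam198b (2.63), Emp1 (2.55), the lymphocyte surface gene Cd7 (2.49) and the ubiquitin ligase adaptor Spsb1 (2.40) completed the 14 largest rises within these limits with Gfi1b. All 14 passed the test under every alternative run.

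Falls were smaller. Ms4a3, a membrane gene of granulocyte and monocyte progenitors at chr19:11629496-11640851, had 342.6, 319.1 and 354.5 normalised read counts in DMSO and 127.9, 124.4 and 150.6 with GSK-LSD1 (log2 fold change -1.33 ± 0.13 SE). Car2, carbonic anhydrase 2, went from 230.4, 181 and 198 to 98.91, 67.68 and 90.75 (-1.25 ± 0.14). Egr1, an immediate early transcription factor, went from 453.8, 462.1 and 489.2 to 204.8, 224.9 and 172.5 (-1.23 ± 0.10). The groups did not overlap in any of these. Rprm, known as a target of p53, fell by 1.19, the orphan receptor Gpr25 by 1.16 and the T cell signalling suppressor Ubash3a by 1.06 on the log2 scale. The organic anion transporter Slco2b1 (-0.93), the activation marker Cd69 (-0.89), Tuba8 (-0.86), neutrophil elastase Elane (-0.82), Hemgn (-0.78), the haem enzyme Cpox (-0.78), which overlaps Gpr15, and the lipid exporter Mfsd2b (-0.77) followed. Ccnb1ip1 at -1.08 shares bases with the RNA gene Rpph1, so its value is uncertain.

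**Figure D2:**
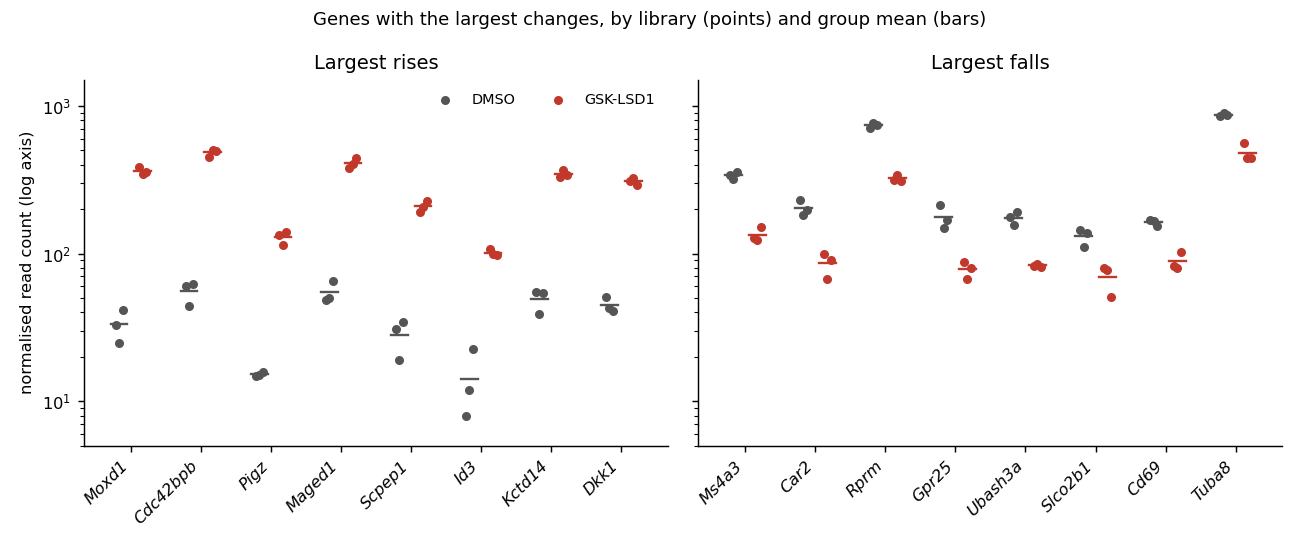
Normalised read counts (log axis) of 8 of the largest rises and 8 of the largest falls in the 3 DMSO and 3 GSK-LSD1 libraries, with points for libraries and bars for group means. For every gene drawn the groups do not overlap, and Moxd1 lies between 25.01 and 41.59 in DMSO and between 346.4 and 386.6 with GSK-LSD1.

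In absolute terms other genes moved most. Vim, which encodes the intermediate filament protein vimentin, had 2689, 2767 and 2932 normalised read counts in DMSO and 10435, 10234 and 10509 with GSK-LSD1. This was the smallest p of the comparison (log2 fold change 1.89 ± 0.05 SE, adjusted p = 1.09e-16). Gzmb, the protease granzyme B, rose from 34399 ± 2076 to 44742 ± 1560 (SD, n = 3) and Fth1, the ferritin heavy chain, from 15529 ± 548 to 21636 ± 694. The cytokine receptor genes Csf2rb2 and Csf2rb rose by 0.42 and 0.26; as near-identical copies they could share reads, and the call of Csf2rb was lost under quantile normalisation (adjusted p = 0.0976). Xist, the RNA of the inactive X chromosome, rose by 0.66, with 11267 in the highest DMSO library and 12113 in the lowest treated library, and it overlaps Tsix. On the other side Ncl, the nucleolar protein nucleolin, had 22259, 22987 and 22172 in DMSO and 15684, 16418 and 16429 with GSK-LSD1 (-0.47 ± 0.06). Serbp1 (-0.41), the glycolytic enzyme Ldha (-0.35) and the RNA-binding gene Hnrnpab (-0.33) also fell.

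Genes silent in DMSO stayed silent with few exceptions. Of 9088 genes listed at 0 in all 3 DMSO libraries, 8227 were also at 0 in all 3 libraries with GSK-LSD1, 795 had a mean above 0 and under 1, 65 had a mean of 1 to 5, none lay between 5 and 10, and 1 reached 10. The reverse gave 8898 genes at 0 with GSK-LSD1, of which 635 had a DMSO mean above 0 and under 1, 36 a mean of 1 to 5 and none more. The exception was Tbx21, which encodes T-bet, the factor that directs T helper 1 and natural killer cells (chr11:97098071-97115331). It was listed at 0 in every DMSO library and had 22.98, 36.83 and 34.9 normalised read counts with GSK-LSD1, and it is a gene that passed the minimum mean only through treated libraries. Tbx21 was again at 0 in all 3 libraries with ruxolitinib alone, which do not enter the fold change against DMSO. In the combination it had 29.76, 47.35 and 36.8.

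Other genes that came from 0 stayed at the level of a few reads. Tpm2, a tropomyosin, had 4.995, 0.9953 and 6.981 with GSK-LSD1, Snai2, a zinc finger repressor, had 2.997, 2.986 and 5.983, and Ror1, a receptor for Wnt5a, had 1.998, 2.986 and 2.992. Ror1 and Snai2 had means of 7.273 and 5.284 in the combination, whereas Tpm2 had 2.645. With a looser limit, a DMSO mean under 1, 5 genes reached a mean of 10 with GSK-LSD1. Besides Tbx21 these were Clec10a, a lectin of macrophages, at 10.97 from 0.9979, C1qtnf3 at 11.97 from 0.6668, Fa2h, a fatty acid hydroxylase, at 10.63 from 0.9945 and the sodium channel Scn11a at 11.3 from 0.6644. The Fa2h mean rests on replicate 2, with 19.91 against 4.995 and 6.981. These 4 were below the minimum mean for the test, and they are named because the count is small, after their values were seen.

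Low but not silent genes could rise to clear levels. Among genes with a DMSO mean above 0 and under 5, Slc15a3, a transporter of peptides and histidine in endolysosomes that overlaps Tmem132a, had 4.965, 5.001 and 4.951 in DMSO and 52.95, 49.77 and 47.87 with GSK-LSD1. Timp1, an inhibitor of metalloproteinases that overlaps Syn1 on the other strand, had 1.986, 2.001 and 7.922 against 48.96, 36.83 and 50.86. Mamdc2, a proteoglycan gene, had 2.979, 3.001 and 1.98 against 30.97, 31.85 and 40.89. These genes were picked for their level with GSK-LSD1, and genes this low in DMSO reached the minimum mean through libraries with GSK-LSD1, those of the combination included. All these values are therefore a description. In the 6 other libraries Slc15a3 had means of 3.366 with ruxolitinib and 60.44 in the combination, Timp1 3.034 and 32.39, and Mamdc2 1.335 and 62.74. Thrsp, Islr2, Adamts15, Zfp467, Adamts9, Dnm3, Ccr10, Kcnab3 and Scpep1os completed the 12 genes of highest treated level, with GSK-LSD1 means of 19.28 to 28.6. No gene with a GSK-LSD1 mean under 5 had a DMSO mean of 50 or more.

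**Figure D3:**
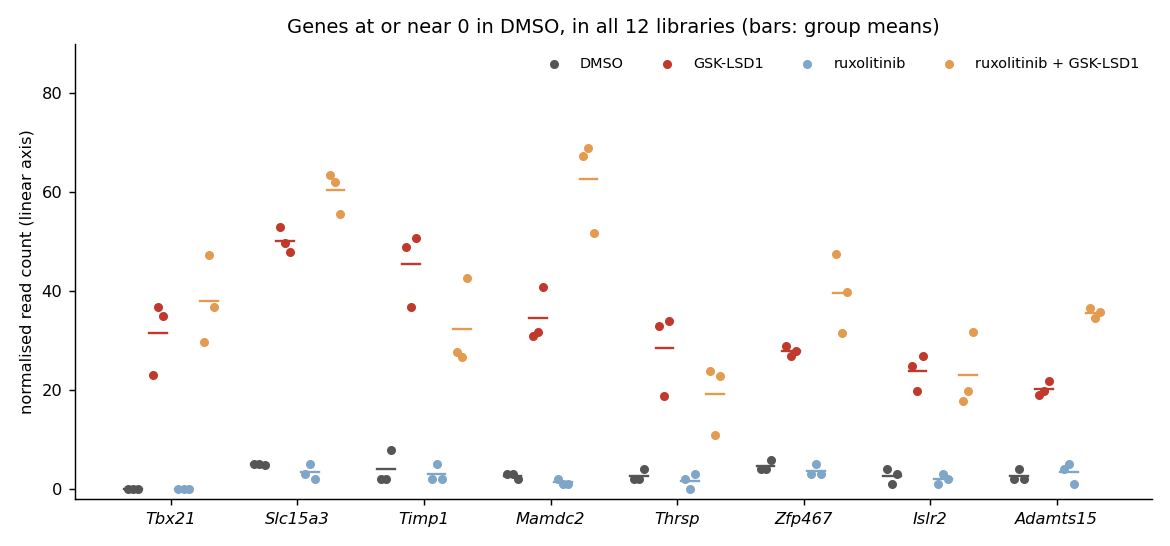
Normalised read counts (linear axis) of 8 genes with a DMSO mean under 5 in all 12 libraries, as points with bars for group means. Libraries without GSK-LSD1 lie at or below 7.922 and those with it, alone or with ruxolitinib, lie higher for every gene drawn, and Tbx21 is at 0 in all 6 libraries without the inhibitor.

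Most tested genes of the monocyte (65.4%) and mature neutrophil (60.7%) lists rose, against 17% of all tested genes. This was not particular to them. The share was 56.5% in the mast cell, basophil and eosinophil list and 55.6% in the dendritic cell list, both given below. In bulk RNA a change in the number of cells of a type and a change in RNA per cell cannot be told apart. Of 26 tested monocyte and macrophage genes 17 rose and 2 fell, with a median log2 fold change of 0.72 against -0.00486 over all tested genes. Ctss, the lysosomal cathepsin S, had 78.45, 68.02 and 73.28 in DMSO and 238.8, 269.7 and 289.2 with GSK-LSD1 (1.84 ± 0.13 SE). Lgals3, galectin 3, rose by 0.88, the sphingolipid activator gene Psap by 0.69 and F13a1, a coagulation factor made by monocytes, by 0.44 from the highest level of the list. Irf8, a factor of monocyte and dendritic cell fate, rose from 29.83 ± 2.88 to 62.82 ± 7.48 (1.05). Csf1r, the receptor of macrophage colony-stimulating factor, had 44.69, 27.01 and 24.76 in DMSO and 39.96, 50.76 and 47.87 with GSK-LSD1, which overlap (0.55 ± 0.22, adjusted p = 0.0591). It was called higher with only the 6 libraries (adjusted p = 0.0358), without both libraries that stood apart (0.0346) or the ruxolitinib one of them (0.0474), and when DMSO replicate 1 was left out (0.00994). With a minimum mean of 50, 11 of the monocyte genes were called higher.

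Neutrophil genes are given by the stage at which they are known to be made, and the difference between stages was not tested. Genes of primary granules, which form in promyelocytes, gave 1 rise and 4 falls among 8 tested members (median -0.39), with up to 3 rises under other settings. Beside Ms4a3 and Elane, Prtn3 had 2204, 2002 and 2085 in DMSO and 1312, 1284 and 1198 with GSK-LSD1 (-0.73 ± 0.09), and Ctsg, cathepsin G, fell by 0.69. Mpo was at 0.13 ± 0.08 (adjusted p = 0.233), a value called higher when only the 6 libraries of the comparison were fitted (adjusted p = 0.00412) and without both libraries that stood apart (0.0425). Prtn3 overlaps Plppr3. Of 16 genes of secondary and tertiary granules, which form later, 7 rose and none fell (median 0.29), with 1 fall after the GC correction and 3 under quantile normalisation. Mmp8, neutrophil collagenase, had 2252, 2018 and 1953 in DMSO and 5016, 5192 and 6006 with GSK-LSD1 (1.38 ± 0.07), Itgam, the integrin CD11b, rose by 0.53 and the annexin Anxa1 by 0.45. Of 28 genes of mature neutrophils 17 rose and 1 fell (median 0.37). The lipoxygenase Alox15 went from 306.9, 342.1 and 298.1 to 622.4, 652.9 and 694.1 (1.06), and the MYC antagonist Mxd1 (0.53) and S100a9, a subunit of calprotectin (0.47), rose as well.

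The transcription factor list had 23 rises and 7 falls among 54 tested members (median 0.20), or 20 and 13 after the GC correction (median 0.08). Bach2, a repressor of B and T cells, rose from 7.301 ± 3.78 to 30.58 ± 3.47 (2.05 ± 0.38 SE). Its DMSO mean lay under the minimum mean for the test, which Bach2 thus passed only through other libraries. The rise of Bach2 is therefore a description. Klf2 rose from 71.56 ± 22 to 198.8 ± 27.8 (1.495 ± 0.169). The master regulator Spi1, which encodes PU.1, was at 0.23 ± 0.10 (adjusted p = 0.0869). It was called higher with only the 6 libraries (adjusted p = 0.000634), without both libraries that stood apart (0.00115) or either of them (0.0233 and 0.0347), and under quantile normalisation (0.0382). Cebpa was at -0.07 ± 0.09 (adjusted p = 0.566, but called lower after the GC correction, adjusted p = 0.0249). Lmo2, a bridge protein of stem cell and erythroid complexes, fell by 0.52, Mycn by 0.48 and Myc by 0.35. The falls numbered 4 without DMSO replicate 1. Of the genes of prior interest known from progenitors, Cd34 and Kit rose. Cd34 had 307.9, 228.1 and 254.5 in DMSO and 1012, 985.4 and 1064 with GSK-LSD1 (1.96 ± 0.09, adjusted p = 6.45e-13). Kit, the stem cell factor receptor, had 20.85, 21.01 and 15.84 against 53.95, 39.81 and 38.89 (1.16 ± 0.21). Hoxa9 and Meis1 were near 0 throughout, with no library above 3.001 in either group. Bach2, Klf2, Lmo2 and Mycn are named here for the size of their change, after their values were seen, as are some members in the paragraphs that follow.

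Of the gene lists looked at, that of receptors for cytokines and chemokines held the most rises in number, though not as a share. Of 63 tested cytokine and chemokine receptor genes 38 rose and 1 fell (median 0.33), and 13 rose at least 2-fold. The share of rises was 60.3%, against 17% of all tested genes. Shares were larger in the stromal (80% of 5), monocyte (65.4%), lysosomal (61.1%) and mature neutrophil (60.7%) lists. Axl, a receptor kinase for GAS6, had 55.61, 71.02 and 86.15 in DMSO and 326.7, 307.5 and 291.2 with GSK-LSD1 (2.13 ± 0.15 SE). Acvrl1, a type I receptor of the TGF-beta family, rose from 13.27 ± 3.08 to 65.48 ± 17.1 (2.21) and Il10ra from 27.49 ± 8.15 to 122.7 ± 13 (2.15). Ifngr2, a chain of the interferon-gamma receptor, rose by 1.23, and Il18r1 by 0.84. Of 32 tested ligands 14 rose and 2 fell (median 0.29). Csf1, the macrophage growth factor, had 197.6, 190 and 155.5 in DMSO and 419.6, 478.7 and 460.7 with GSK-LSD1 (1.32 ± 0.11), and the chemokines Ccl9 (0.55) and Ccl6 (0.45) rose. With a minimum mean of 50, 9 ligands rose. Il10 and its receptor chain went opposite ways, since Il10 fell from 65.97 ± 1.28 to 27.93 ± 8.75 (-1.25 ± 0.21).

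Pattern recognition and Fc receptors had 20 rises and 3 falls among 42 tested members (median 0.50). Fcgr2b, the inhibitory Fc receptor, rose from 764.2 ± 21.6 to 1549 ± 84.9 (1.02), Cd33 by 1.05 and Fcgr3 by 0.81, whereas Fcer1a, a chain of the IgE receptor and the highest of the list, was at -0.11 (adjusted p = 0.445). The count of rises was 12 without DMSO replicate 2 or with a minimum mean of 50, and 13 under quantile normalisation. Adhesion genes gave 26 rises and 2 falls among 44 (median 0.38). Thbs1, thrombospondin 1, had 485.6, 385.1 and 354.5 in DMSO and 946.1, 1113 and 1150 with GSK-LSD1 (1.39 ± 0.10). Itga4, the highest of the list, rose by 0.27. Leaving out DMSO replicate 3 (adjusted p = 0.0831), GSK-LSD1 replicate 2 (0.0786) or its replicate 3 (0.0689) ended that call. Of 72 genes of actin, small GTPases and myosin 27 rose and 3 fell (median 0.08), or 22 and 8 after the GC correction (median 0.0055). Beside Cdc42bpb and Vim, the tropomyosin Tpm4 went from 302.9, 326.1 and 305 to 1009, 975.4 and 1107 (1.72 ± 0.09), while Actb was at 0.04 (adjusted p = 0.675).

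Most of the lysosomal genes tested were higher. Of 54 tested members 33 rose and 1 fell (median 0.27; 30 and 4 after the GC correction), and over all alternatives the rises numbered 29 to 35. Lgmn, the protease legumain, had 176.8, 171 and 177.3 in DMSO and 604.4, 509.6 and 534.5 with GSK-LSD1 (1.64 ± 0.08 SE). Gm2a, the GM2 ganglioside activator, rose from 1029 ± 76.5 to 2227 ± 95.7 (1.12 ± 0.07), and Ctsd, cathepsin D and the highest of the list, by 0.20. Its call ended when replicate 1 of DMSO (adjusted p = 0.0589) or of GSK-LSD1 (0.0663) was left out. The exception was Arsb, the enzyme arylsulfatase B, which fell from 4590 ± 94.9 to 2860 ± 63 (-0.68 ± 0.05).

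Most tested genes of ribosome assembly and nucleotide synthesis were lower. Of 68 tested genes of RNA polymerase I and ribosome assembly 58 fell and none rose, with a median log2 fold change of -0.37. Over all alternatives the falls numbered 55 to 63. Nolc1, a nucleolar chaperone, had 4726, 4746 and 4648 in DMSO and 3192, 3216 and 3089 with GSK-LSD1 (-0.57 ± 0.06 SE), Gnl3, nucleostemin, fell by 0.48 and the helicase Ddx21 by 0.46. Of 42 genes of nucleotide and one-carbon synthesis 32 fell and 1 rose (median -0.29). Srm, spermidine synthase, had 3101, 2972 and 3228 against 2058, 1840 and 1808 (-0.71 ± 0.07), Odc1 fell by 0.62 and the purine enzyme Ppat, which overlaps Paics, by 0.49.

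Falls were also the larger count in lists of translation and mitochondrial proteins. Of 23 cytosolic aminoacyl-tRNA synthetase genes 16 fell, and of 42 translation factors 27 fell, with none higher in either list (medians -0.22 and -0.22). Eif2b4, Eif2b3 and Eif2b1, subunits of the exchange factor of eIF2, fell by 0.54, 0.48 and 0.40, whereas Eef2, the highest of the list, was at 0.01 (adjusted p = 0.891). Of 51 genes of the mitochondrial ribosome and import 38 fell and none rose (median -0.30), a count of 24 without GSK-LSD1 replicate 2 and 25 without replicate 3. The chaperonin Hspd1, which overlaps Hspe1, had 3564, 3691 and 3750 in DMSO and 2432, 2499 and 2520 with GSK-LSD1 (-0.56 ± 0.07). Of 46 DNA replication genes 33 fell and none rose (median -0.23), or 21 without GSK-LSD1 replicate 3, with the origin recognition gene Orc2 at -0.54, Orc6 at -0.44 and Mcm3 at -0.28.

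The lists nearer to the cell cycle and to energy supply moved less firmly. Of all tested genes 17% rose and 15.5% fell, but 28.8% fell among genes at 1000 to 3000 in the ruxolitinib libraries. Falls made up 32% of the mitosis list, 32.8% of the oxidative phosphorylation list and 22.2% of the housekeeping list. These lists were not matched to other genes of their level. Of 50 mitosis genes 16 fell and 2 rose (median -0.12), and the falls numbered 9 to 10 when replicate 2 or 3 of either group was left out; Ccna2, cyclin A2, fell by 0.27, while Top2a was at -0.07 (adjusted p = 0.409). Of 61 oxidative phosphorylation genes 20 fell and 1 rose (median -0.15), with 11 falls without DMSO replicate 1, DMSO replicate 3 or GSK-LSD1 replicate 2, 12 without GSK-LSD1 replicate 3, 32 without both libraries that stood apart and 36 after the GC correction. The 1 rise, Ndufc2, went against the list from 1092 ± 66.7 to 1454 ± 54.9 (0.41 ± 0.06). Of 37 proteasome genes 18 fell (median -0.18), with 9 without DMSO replicate 3, 11 without GSK-LSD1 replicate 2 and 33 after the GC correction. Of 18 housekeeping genes 4 fell and none rose (median -0.09), with 8 falls after the GC correction (median -0.17) and 2 without DMSO replicate 1. Inhibitors of the cell cycle and targets of p53 were mixed, with 8 rises and 4 falls among 35 (median 0.06, or -0.03 after the GC correction). Those shares, 22.9% and 11.4%, were near the shares of all tested genes. Trp53inp1 rose by 0.74 and Btg2 by 0.61, Rprm fell as above, and Trp53 itself was at -0.01 (adjusted p = 0.934). When replicate 2 or 3 of either group was left out the falls numbered 2, and without GSK-LSD1 replicate 3 the rises numbered 5.

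**Figure D4:**
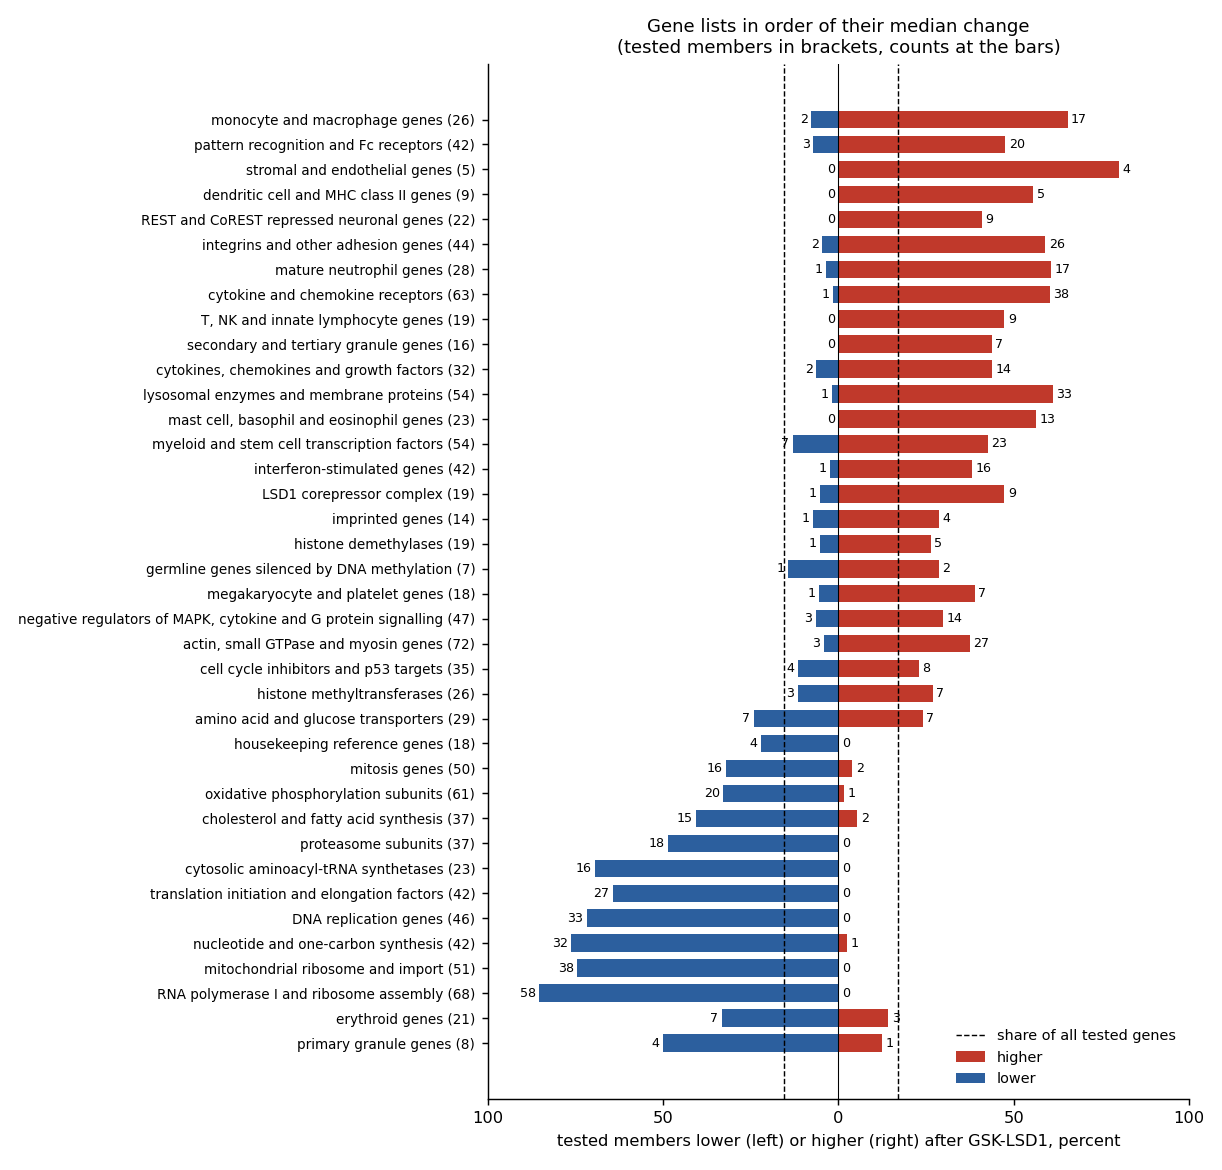
Percentage of tested members of 38 gene lists that were lower (left) or higher (right) after GSK-LSD1, with counts at the bars, tested members in brackets and the shares of all tested genes as broken lines at 17% and 15.5%. Surface, lysosomal and monocyte lists extend to the right, and lists of ribosome assembly, nucleotide synthesis, mitochondrial import and replication extend to the left, led by 58 of 68.

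Lists of other blood lineages and of genes kept silent by other repressors were looked at as well. In the list of mast cells, basophils and eosinophils 13 of 23 tested genes rose (median 0.26), summing to 35806 to 40369 in the DMSO libraries and 44392 to 46202 with GSK-LSD1. Hdc, which forms histamine, rose from 626.1 ± 50.9 to 1102 ± 32.7 (0.82), and Cpa3, a mast cell protease and the highest, by 0.25. Of 19 T, NK and innate lymphocyte genes 9 rose (median 0.30), of 3 tested B cell genes 1 rose, and of 9 genes of dendritic cells and antigen presentation by MHC class II 5 rose (median 0.49). The lymphocyte count includes Tbx21, which passed the minimum mean only through treated libraries, so its rise there is no support. With a minimum mean of 50 the rises numbered 8, 4 and 3 in the mast cell, lymphocyte and dendritic cell lists. Il2rb, a chain of the interleukin-2 receptor, rose from 95.47 ± 2.46 to 216 ± 18 (1.17), Cd86 by 1.67 and Cd74 by 1.45. Gzmb made up most of the lymphocyte sum of 43502 to 46662 in DMSO and 54585 to 58380 with GSK-LSD1, while Cd3e was at 0 and Cd3d at or below 1.994 in all 6 libraries. Of 21 erythroid genes 7 fell and 3 rose (median -0.38), with sums of 8327 to 9067 and 7367 to 7620, and Hba-a1 and Hbb-bs were at 0. Quantile normalisation gave 11 falls there. Slc4a1, the red cell anion exchanger, fell from 70.97 ± 13.9 to 19.29 ± 6.82, the largest fall of all tested genes at -1.86 ± 0.30, whereas the membrane skeleton gene Add2 rose by 1.55. Of 18 megakaryocyte genes 7 rose and 1 fell (median 0.12), with Itgb3, the platelet integrin chain, from 789 ± 24.7 to 1565 ± 36.1 (0.99) and Pf4 between 53.75 and 71.93 in all 6. Of 5 tested stromal and endothelial genes 4 rose, summing to 3367 to 3460 and 4191 to 4474, with Cdh5 at 0, Col1a1 between 41.71 and 77.93 and Pecam1, also a leukocyte gene, at 2940 or more. The part of these cell types in the results was not tested.

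Neuronal genes known to be held down by REST and CoREST in other tissues were examined as a list. Of 81 in the table, 27 were at 0 in all 6 libraries and 22 were tested, of which 9 rose and none fell (median 0.40; 5 rose with a minimum mean of 50). Tubb3 had 80.44, 86.02 and 61.39 in DMSO and 418.6, 404.1 and 345 with GSK-LSD1 (2.35 ± 0.13 SE), the adhesion gene L1cam rose by 1.64 and Syt11, a synaptotagmin, by 1.33. Of 39 genes listed as germline genes silenced by DNA methylation, 27 were at 0 in all 6 and 7 were tested. Of these 2 rose, Maged1 and the meiotic cohesin gene Stag3 (0.50), and 1 fell, Lin28a, from 43.11 ± 3.72 to 28.92 ± 4.04. DNA methylation was not measured, and Maged1 may not belong in this list, so no loss of germline silencing is read from it. The shares were 28.6% and 14.3%, against 17% and 15.5% of all tested genes. Leaving out replicate 2 of DMSO (adjusted p = 0.0712) or of GSK-LSD1 (0.0878) ended the call of Lin28a. Of 42 interferon-stimulated genes 16 rose and 1 fell (median 0.19), with Gbp2 from 44.42 ± 1.29 to 82.44 ± 8.95 (0.87) and Ifitm6 at 0.76.

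The base composition of promoters is given by direction of change, as a description with no test. A promoter was called CpG-rich when its observed to expected CpG ratio was at least 0.6 and its GC content at least 50%. The 2 genes shown are Moxd1, the largest rise in fold among genes with a mean of 100 or more after GSK-LSD1, and Ncl, the largest fall in read counts, with each CpG in capitals, from RefSeq (GRCm38.p6): Moxd1 at chr10:24223267-24223566 on the plus strand and Ncl at chr1:86359406-86359705 on the minus strand.
Moxd1: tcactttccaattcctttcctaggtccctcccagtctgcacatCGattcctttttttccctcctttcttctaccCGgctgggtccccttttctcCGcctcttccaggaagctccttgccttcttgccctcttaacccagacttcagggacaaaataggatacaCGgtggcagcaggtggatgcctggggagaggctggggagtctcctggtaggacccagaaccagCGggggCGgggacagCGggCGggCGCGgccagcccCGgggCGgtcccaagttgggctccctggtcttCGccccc
Ncl: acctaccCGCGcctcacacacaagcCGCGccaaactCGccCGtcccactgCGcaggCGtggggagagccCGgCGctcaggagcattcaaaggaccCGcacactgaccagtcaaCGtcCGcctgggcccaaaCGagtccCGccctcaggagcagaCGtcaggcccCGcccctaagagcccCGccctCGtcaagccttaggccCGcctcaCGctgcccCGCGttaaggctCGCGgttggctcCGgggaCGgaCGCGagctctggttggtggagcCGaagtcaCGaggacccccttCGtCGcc
The Moxd1 promoter holds 13 CpG (ratio 0.461) and the Ncl promoter 33 (ratio 0.940). Over the 8865 tested genes with a promoter in the table, 70.8% were CpG-rich. The share was 44.9% of 216 genes at least 2-fold higher, 58.4% of all genes higher, 80.5% of genes lower and 71.7% of genes that did not pass. It was 47.6% of the 21 genes at least 2-fold lower. Since the share also differed with the level of expression, it was taken within levels set by the ruxolitinib libraries. At 100 to 1000 normalised read counts it was 51.4% of 37 genes at least 2-fold higher, 66.7% of other genes higher, 79.7% of genes lower and 76.9% of genes that did not pass. At 10 to 100 it was 48.6% of 140 genes at least 2-fold higher, 50.2% of other genes higher, 54.5% of 66 genes lower and 54.8% of genes that did not pass. At that level genes lower and genes that did not pass thus had nearly the same share.

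The longer GFI1 and GFI1B motif AAATCA was searched on both strands of these 300-base windows; it contains the AATC marked above. It was found in 13.9% of promoters of genes at least 2-fold higher, in 6.73% of genes lower and in 8.04% of all. Within promoters that were not CpG-rich it was found in 24 of 119 genes at least 2-fold higher (20.2%) and in 13.2% of genes that did not pass. Within CpG-rich promoters it was found in 6 of 97 genes at least 2-fold higher (6.19%) and in 6.12% of genes that did not pass. These shares describe letters in a short window and were not tested.

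The effect was measured a further time in 6 libraries that do not enter the fold changes against DMSO, as the combination against ruxolitinib alone. There 3625 of 11484 genes passed (31.6%), 1832 higher and 1793 lower. Of these 2649 were called in the same direction as without ruxolitinib and none in the opposite direction, which is 71.1% of the calls against DMSO and 73.1% of those with ruxolitinib. Both comparisons share the estimate of spread and the minimum mean over the 12 libraries, so these calls are not independent. Fitted on only its own 6 libraries, GSK-LSD1 against DMSO gave 4985 calls and the combination against ruxolitinib 2567. The overlap of those calls was not taken. Across the 11484 genes, which are not independent replicates, the log2 fold changes had a Pearson's r of 0.852 and a Spearman's rank correlation of 0.792. Of 299 genes that rose at least 2-fold alone 269 also rose with ruxolitinib, and of 27 that fell at least 2-fold 21 also fell. The median of those rises was 1.32 alone and 1.31 with ruxolitinib, and that of those falls -1.22 and -0.99. Moxd1 rose by 3.78 and Gfi1b by 2.31 with ruxolitinib, Ncl fell by 0.50, and 61 of the 68 ribosome assembly genes fell.

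The difference between both measurements of the effect was tested as an interaction. It passed for 1 gene of 11484 (0.00871%), with 534 at an unadjusted p under 0.05. That gene was Mmp8, at 2040, 1991 and 1764 normalised read counts with ruxolitinib and 8499, 7585 and 7974 in the combination. It rose by 2.05 ± 0.07 SE with ruxolitinib and by 1.38 ± 0.07 without, a difference of 0.67 ± 0.10 (limma adjusted p = 0.0236). No gene passed when DMSO replicate 1 or 2, GSK-LSD1 replicate 1 or 2, combination replicate 1 or ruxolitinib replicate 3 was left out. None passed with no minimum mean, under quantile normalisation or with the replicate block. The genes with the next smallest p did not pass: Lyz2, lysozyme, was at 0.32 alone and 1.08 with ruxolitinib (adjusted p of the difference 0.0793), Thbs1 rose by 1.39 and 2.07 (adjusted p = 0.207), and the laminin gene Lama5 rose by 0.54 alone and was at 0.07 with ruxolitinib (adjusted p = 0.207). The libraries of Lyz2 overlapped between DMSO and GSK-LSD1, and its call alone ended without DMSO replicate 2 (adjusted p = 0.0603), DMSO replicate 3 (0.0996) or GSK-LSD1 replicate 1 (0.0607).

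**Figure D5:**
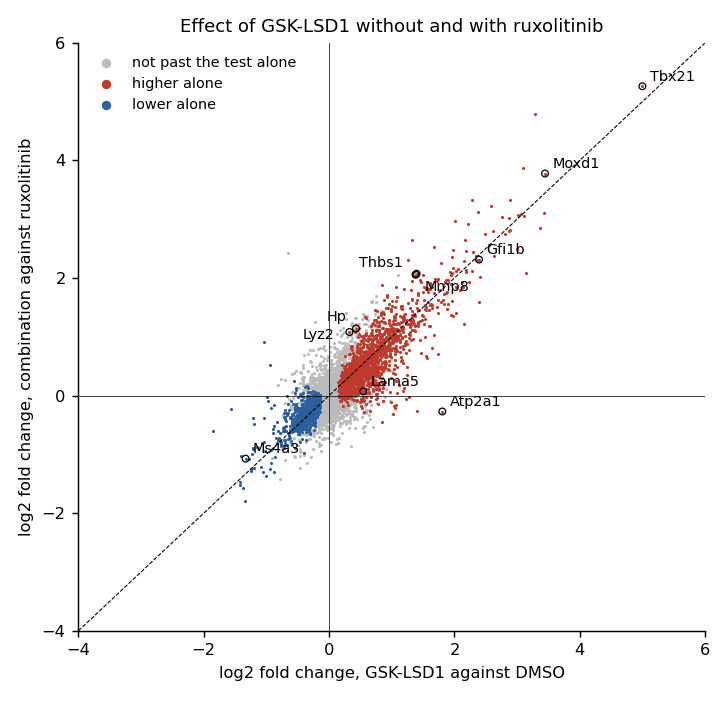
Log2 fold change of the combination against ruxolitinib (vertical axis) against that of GSK-LSD1 against DMSO (horizontal axis) for 11484 genes, coloured by the call against DMSO, with the line of equal change broken. Most coloured genes lie along that line (Pearson's r 0.852 across genes), and Mmp8 lies above it at 1.38 and 2.05.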

How the data were processed

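Total RNA of 12 libraries was sequenced. The authors deposited 1 table of normalised signal per gene and library: gene counts scaled per library, with 1e-05 added to every value, as the values show. Per the submitters' processing notes STAR, DESeq2 and the builds mm10 and GRCm38 were used; versions, roles, annotation, counting program and strandedness are not given in the sources used here. The constant was taken off. Values were then whole multiples of a step between 0.9865 and 1.027, but whole reads were not taken as recovered, so no count model was run.

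Testing was limited to genes whose mean over the 12 libraries was 10 or more, with limma 3.58.1 (R 4.3.3) on log2(value + 1), with a variance trend, 1 mean per treatment and 8 residual degrees of freedom. The 3 comparisons were GSK-LSD1 against DMSO, combination against ruxolitinib, and their difference. A fold change on this scale understates the change of low genes. The procedure was run on simulated data. Those held far fewer changed genes and no library that stood apart, so they say little about the calls made here. Alternatives were other pseudocounts (0.25 and 5), other minimum means (none and 50), equal totals, quantile normalisation, a GC correction (20 bins), only the 6 libraries, the replicate block and each library left out.

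The members and the 39 gene lists were chosen with earlier results of these data known. The text names genes from these choices: the 14 largest rises and falls (higher group at 100 or more on average, no overlap of libraries), the 6 largest each way in counts, the highest of the genes near 0, 3 members with the smallest p and the highest member of each list, the 6 smallest interaction p and 15 genes of prior interest. Predicted genes, date-like symbols (27) and repeated symbols (2) were not named, and some genes that these choices take in are not reported here. Positions are from GENCODE vM21 (GRCm38), matched by symbol for 23353 genes; promoters are from RefSeq, with 8865 tested genes matched. Overlapping genes are marked, since strand is not given.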

Additional observations from a re-analysis of the deposited data

Results flagged for a closer look

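The effect of GSK-LSD1 differed with and without ruxolitinib for 1 of 11484 tested genes by a test of the difference itself (limma interaction, adjusted p under 0.05). The gene was Mmp8, neutrophil collagenase, with a difference of 0.67 ± 0.10 SE on the log2 scale (adjusted p = 0.0236). It was higher in 3 of 3 libraries with GSK-LSD1 than in any library without it, in both backgrounds. No gene passed the test of the difference with no minimum mean, under quantile normalisation or with the replicate block. The same held with some single libraries left out.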

How the results depend on the processing

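Of the values for the main comparisons 40 moved, all of them counts; among single genes and lists, over all settings, 223 moved, 40 lost and 21 gained a call. The calls against DMSO numbered 3728 and lay between 3389 and 4985 with other processing, and between 2736 and 4209 with 1 library left out. The GC correction raised the falls from 1780 to 3116 (3081 with ruxolitinib, against 1793) and moved the median of all genes to -0.0642, so small falls depend on it; with only the 6 libraries of the comparison the falls with ruxolitinib numbered 1128. Genes at least 2-fold higher and lower, 299 and 27, numbered 136 and 7 with a minimum mean of 50, 458 and 63 with none, and 183 and 59 under quantile normalisation, and the falls 16 with a pseudocount of 5. With 1 library left out they lay between 275 and 318 and between 24 and 29.

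The interaction count of 1 (1 higher, 0 lower) was 4, all higher, after the GC correction, 3, all higher, without both libraries that stood apart, and 0 with no minimum mean, quantile normalisation or the replicate block. With 1 library left out it lay between 0 and 2, of which 0 to 2 were higher and 0 to 1 lower. The count of genes at 0 in DMSO that reached a mean of 10, which was 1, was 5 with a DMSO mean under 1 allowed and 1 to 2 with 1 library left out.

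Same-numbered DMSO and GSK-LSD1 libraries did not deviate together (correlations of 0.0116, -0.00331 and -0.0408). Same-numbered ruxolitinib and combination libraries gave 0.150, -0.125 and -0.115. The labels do not say whether numbers pair the samples, and such correlations cannot settle how the samples were handled. With the replicate block 3485 genes passed, and not every sample correlated best with its own number. Of 169 named genes that passed, 156 passed under every alternative, and 13 were lost under at least 1. No named gene that passed changed its sign under any alternative run. Depth limits genes near 0: a mean of 1 to 5 rests on few reads.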

Other observations

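Some lists with little or mixed movement add detail. Of all tested genes 17% rose and 15.5% fell. The transporters below stood at 24.1% each way. Of 37 genes of cholesterol and fatty acid synthesis 15 fell and 2 rose (median -0.17), with 7 falls without DMSO replicate 3 or GSK-LSD1 replicate 3 and 24 after the GC correction. Lss, which closes the sterol rings, fell by 0.47 and Fdps, which makes farnesyl diphosphate, by 0.42, whereas the cholesterol exporter Abcg1 rose from 199.8 ± 19.7 to 309.1 ± 13 normalised read counts (SD, n = 3; log2 fold change 0.63 ± 0.11 SE). Of 29 amino acid, nucleoside and glucose transporters 7 rose and 7 fell (median -0.06; 11 fell after the GC correction). The folate carrier Slc19a1 fell by 0.62 and the large amino acid transporter Slc43a2 rose by 0.67.

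Of 47 negative regulators of MAPK, cytokine and G protein signalling 14 rose and 3 fell (median 0.11), the falls being 0 without DMSO replicate 1. Dusp5, a phosphatase of ERK, rose from 126.3 ± 10.3 to 230.7 ± 26.8 (0.86), Rasa3 by 0.60 and the phosphatase Ptpn6 by 0.47. Of 26 histone methyltransferase genes 7 rose and 3 fell (median 0.02), or 4 and 9 after the GC correction (median -0.03), and the rises numbered 2 without GSK-LSD1 replicate 2, 3 without DMSO replicate 1 or 3 and 12 without both libraries that stood apart. Prmt5 fell by 0.32 and Kmt2c rose by 0.39. Of 14 tested imprinted genes 4 rose and 1 fell (median 0.14), among them the growth regulator Grb10 from 103.7 ± 14.9 to 190.1 ± 30.3 (0.87) and the tetraspanin Cd81 from 19.2 ± 7.89 to 50.54 ± 11 (1.41). Of all tested genes 17% rose and 15.5% fell. The shares were 29.8% and 6.38% for the negative regulators, 26.9% and 11.5% for the methyltransferases and 28.6% and 7.14% for imprinted genes.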
